A study of Mus musculus with 9 samples.

Results

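The messenger RNAs of 7 interferon-stimulated genes (Bst2, Ifi27, Isg15, Ifit1, Ifit3, Irf7 and Irf9) and 2 guanylate-binding proteins (Gbp8 and Gbp9) were followed in C2C12 cells, a mouse myoblast line that stops dividing and fuses into myotubes when growth medium is withdrawn. These 9 genes were taken by name from the 47728 genes counted in every library. Gbp8 and Gbp9 had been picked for their fall upon Fkbp5 knockdown, so their values in any comparison of the knockdowns are given as a description with no test. The groups were C2C12 cells with a knockdown of Fkbp5, cells with a knockdown of Fkbp4 and control cells (named Neg in the sample titles), each sampled on days 0, 3 and 5. Cells were grown in serum, and from day 0 they were kept in medium with insulin, transferrin and selenium to differentiate. Fkbp5 and Fkbp4 are peptidyl-prolyl isomerases that bind Hsp90 as co-chaperones, and the study set out to relate Fkbp5 and Cdk4 to myoblast differentiation. There was 1 library per genotype and day, 9 in all, with no replicates. The method of knockdown, the number of clones and what the control cells received are not given in the sources used here.

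Interferons are secreted signals that bind receptors at the cell surface and, through the Jak kinases and transcription factors, switch on a large set of interferon-stimulated genes. Their products block viral entry, translation and release, and the guanylate-binding proteins, large GTPases induced above all by interferon gamma, coat and disrupt the membranes around intracellular microbes. The promoters of many of these genes carry the interferon-stimulated response element (ISRE), a DNA word bound by interferon regulatory factors.

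Libraries held 3932372 to 5568486 counted reads, and levels are given as normalised CPM, read counts scaled by library size and composition (TMM). Fkbp5 itself stood at 3.18 to 4.60 CPM in the Fkbp5 knockdown, against 7.34 to 20.1 CPM in the control. Fkbp4 stood at 24.0 to 60.1 CPM in the Fkbp4 knockdown, against 138 to 240 CPM in the control. The summed level of 8 myoblast and myotube markers was 1205, 6081 and 10459 CPM at days 0, 3 and 5 in the Fkbp5 knockdown, 1192, 8614 and 14495 CPM in the Fkbp4 knockdown, and 1188, 7821 and 13596 CPM in the control. Of 14 immune and endothelial markers, 6 had 0 reads in all 9 libraries, among them Adgre1, Cd3e, Ncr1, Cdh5 and Tie1, and Ptprc, the pan-leukocyte marker, had at most 2 reads in a library. Cd14 and Cd68 passed the low-count filter. Mitochondrial transcripts took 2.57% to 10.1% of reads in the Fkbp5 knockdown, 1.78% to 5.01% in the Fkbp4 knockdown and 1.80% to 4.75% in the control.

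Per kilobase of exon, Ifi27 was the most abundant of the 9 genes, with a mean of 55.0 CPM per kb over the 9 libraries. Bst2 followed at 8.82 CPM per kb, and Gbp8, Gbp9, Irf9 and Isg15 lay between 1.90 and 2.82 CPM per kb. At day 5 Gbp8 exceeded Bst2 in the control, at 10.0 and 8.30 CPM per kb, and Gbp9 exceeded it in the Fkbp4 knockdown, at 8.50 and 8.39 CPM per kb. By their means, Ifit3, Irf7 and Ifit1 were the lowest, at 0.619, 0.359 and 0.352 CPM per kb. These 3 genes did not pass the low-count filter of the fit over genotype and day, so 4 interferon-stimulated genes and both guanylate-binding proteins could be tested there, 6 of the 9.

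The sequence around the start sites is shown for Bst2, Isg15, Ifit1 and Ifit3 because these are the members whose promoter window holds a full ISRE. The windows run from 250 bases before to 50 bases after the start site, 5′ to 3′ on the gene's strand, from RefSeq promoters of build GRCm38.p6. Capitals mark each ISRE, written GAAANNGAAA and searched on both strands. The Bst2 window lies on the minus strand at chr8:71537423-71537722, and that of Isg15 on the minus strand at chr4:156200769-156201068. That of Ifit1 lies on the plus strand at chr19:34640639-34640938, and that of Ifit3 on the plus strand at chr19:34583279-34583578.
Bst2: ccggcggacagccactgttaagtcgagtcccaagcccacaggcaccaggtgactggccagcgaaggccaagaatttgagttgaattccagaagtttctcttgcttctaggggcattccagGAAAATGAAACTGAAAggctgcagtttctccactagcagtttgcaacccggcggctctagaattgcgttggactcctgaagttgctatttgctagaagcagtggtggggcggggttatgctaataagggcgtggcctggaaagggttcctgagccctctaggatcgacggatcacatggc
Isg15: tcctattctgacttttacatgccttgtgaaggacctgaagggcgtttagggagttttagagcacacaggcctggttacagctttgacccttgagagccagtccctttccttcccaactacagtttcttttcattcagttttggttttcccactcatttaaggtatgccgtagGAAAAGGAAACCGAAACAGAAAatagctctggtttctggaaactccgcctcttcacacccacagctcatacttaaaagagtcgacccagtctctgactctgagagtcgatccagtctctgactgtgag
Ifit1: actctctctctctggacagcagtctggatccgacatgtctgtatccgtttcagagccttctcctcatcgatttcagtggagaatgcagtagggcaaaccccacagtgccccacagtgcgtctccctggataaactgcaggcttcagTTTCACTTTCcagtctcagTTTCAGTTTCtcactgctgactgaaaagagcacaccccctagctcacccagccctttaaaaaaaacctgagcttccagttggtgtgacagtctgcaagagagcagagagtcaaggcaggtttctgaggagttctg
Ifit3: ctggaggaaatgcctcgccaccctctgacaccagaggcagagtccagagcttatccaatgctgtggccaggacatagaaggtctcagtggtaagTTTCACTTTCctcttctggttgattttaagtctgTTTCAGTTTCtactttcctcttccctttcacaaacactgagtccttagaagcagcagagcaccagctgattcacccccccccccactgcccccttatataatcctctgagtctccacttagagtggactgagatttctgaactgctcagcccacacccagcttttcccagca
The first base of the element stood 130 and 124 bases before the start in Bst2 and 78, 72 and 66 bases before it in Isg15. Neighbouring matches overlap. In Ifit1 it stood 104 and 85 bases before the start, and in Ifit3 156 and 122 bases before it, in both genes with the complementary letters on the gene's strand. The promoter table held windows for 6 of the 9 genes, and 4 of these 6 had an ISRE, against 3.44% of all 32851 promoter windows. The windows of Irf7 and Irf9 did not contain these letters. With 1 mismatch allowed, 5 of the 6 matched, against 35.4% of all windows. The interferon-gamma activated site, written TTCNNNGAA, occurred in the Bst2 window alone among the 6 members, against 8.30% of all windows.

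**Figure D1:**
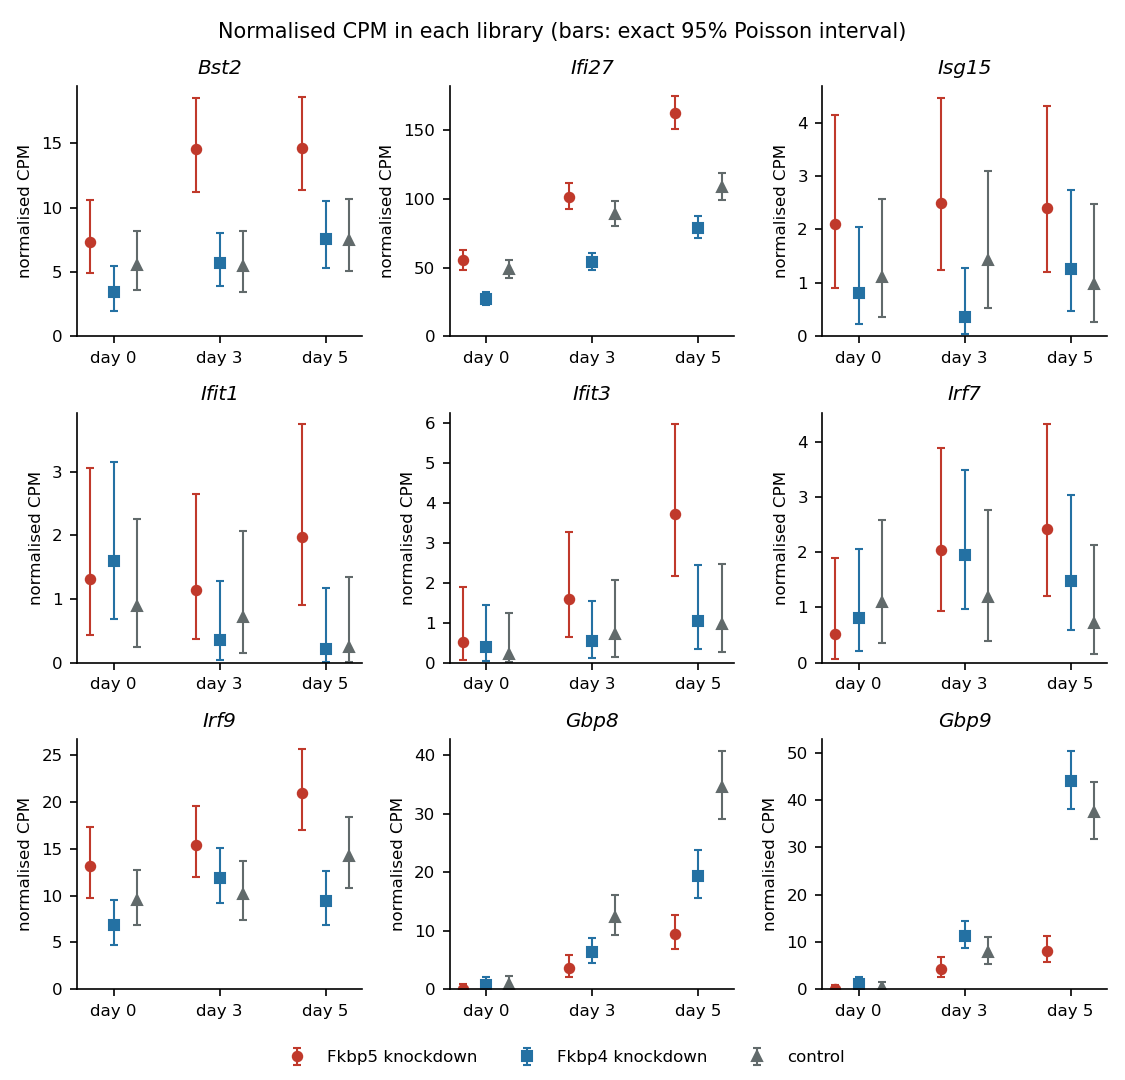
Normalised CPM of the 9 genes (vertical axis, linear, a separate scale per gene) at days 0, 3 and 5 in the Fkbp5 knockdown (circles), the Fkbp4 knockdown (squares) and the control (triangles), 1 library per point, with exact 95% Poisson intervals as bars. Bst2 stood at 14.5 and 14.7 CPM in the Fkbp5 knockdown at days 3 and 5, against 5.44 and 7.49 CPM in the control, while Gbp9 reached 8.10 CPM in the Fkbp5 knockdown at day 5, against 37.5 CPM in the control.

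Among the transcription factors, Irf9, an interferon regulatory factor that acts in the response to type I interferon, had 13.1, 15.4 and 21.0 CPM at days 0, 3 and 5 in the Fkbp5 knockdown, 6.81, 11.8 and 9.47 CPM in the Fkbp4 knockdown, and 9.49, 10.2 and 14.3 CPM in the control. The Fkbp5 knockdown was the highest of the 3 genotypes on each day, and its range lay clear of that of the Fkbp4 knockdown but overlapped that of the control. Irf9 (chr14:55603571-55610030, plus strand, GRCm38) shares 123 of its 5386 exon bases with Rnf31 on the same strand. Irf7, the factor that drives type I interferon genes after infection, had 2, 9 and 11 reads in the Fkbp5 knockdown, 4, 11 and 7 reads in the Fkbp4 knockdown, and 5, 5 and 3 reads in the control at the same days. All 3 genotypes overlapped for Irf7, and the exact 95% interval of each same-day ratio included 1.

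Bst2 (tetherin, chr8:71534255-71537456, minus strand) anchors budding enveloped viruses to the cell surface. It had 7.35, 14.5 and 14.7 CPM at days 0, 3 and 5 in the Fkbp5 knockdown, 3.41, 5.66 and 7.57 CPM in the Fkbp4 knockdown, and 5.52, 5.44 and 7.49 CPM in the control. The Fkbp5 knockdown was highest on each day, with day 0 inside the control range and days 3 and 5 well above every library of the other genotypes. From single libraries, the ratio of the Fkbp5 knockdown to the control was 1.33 at day 0 (exact 95% interval 0.749 to 2.38), 2.67 at day 3 (1.64 to 4.51) and 1.96 at day 5 (1.26 to 3.10), where the interval covers counting error only.

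Ifi27 (chr12:103434211-103440239, plus strand), which encodes a small hydrophobic membrane protein induced by type I interferon, was measured on the most reads. It had 55.2, 102 and 163 CPM at days 0, 3 and 5 in the Fkbp5 knockdown, 27.2, 54.1 and 79.1 CPM in the Fkbp4 knockdown, and 48.8, 89.0 and 109 CPM in the control. On each day the order was Fkbp5 knockdown, control, Fkbp4 knockdown, while the ranges over days overlapped. The ratio of the Fkbp5 knockdown to the control was 1.13 at day 0 (0.931 to 1.37), 1.14 at day 3 (0.995 to 1.32) and 1.50 at day 5 (1.33 to 1.69). The ratio of the Fkbp4 knockdown to the control was 0.559 at day 0 (0.448 to 0.695), 0.608 at day 3 (0.521 to 0.709) and 0.727 at day 5 (0.632 to 0.836), with all 3 intervals below 1.

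Isg15 (chr4:156199424-156200818, minus strand), a ubiquitin-like modifier that is conjugated to new proteins, was covered by few reads. It had 8, 11 and 11 reads at days 0, 3 and 5 in the Fkbp5 knockdown (2.10, 2.50 and 2.41 CPM), 4, 2 and 6 reads in the Fkbp4 knockdown (0.801, 0.354 and 1.26 CPM), and 5, 6 and 4 reads in the control (1.10, 1.42 and 0.967 CPM). The lowest Fkbp5 knockdown library lay above the highest of the others, yet only the day 3 ratio of the Fkbp5 knockdown to the Fkbp4 knockdown, 7.07, had an interval above 1 (1.54 to 65.6).

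Ifit1 (chr19:34640871-34650009, plus strand) binds foreign capped RNA and blocks its translation, and Ifit3 (chr19:34583531-34588731, plus strand) belongs to the same family and, in human cells, binds IFIT1. Ifit1 had 5, 5 and 9 reads at days 0, 3 and 5 in the Fkbp5 knockdown, 8, 2 and 1 reads in the Fkbp4 knockdown, and 4, 3 and 1 reads in the control. Ifit3 had 2, 7 and 17 reads in the Fkbp5 knockdown, 2, 3 and 5 reads in the Fkbp4 knockdown, and 1, 3 and 4 reads in the control. The intervals of the day 0 ratios included 1 for both genes. At day 5 the ratio of the Fkbp5 knockdown to the control was 8.15 for Ifit1 (1.13 to 357) and 3.85 for Ifit3 (1.26 to 15.7). Of the 31-base words of Ifit3 transcripts, 61.8% also occur in its near-identical neighbour Ifit3b, so the split of reads between them is uncertain. Ifit3 and Ifit3b together had 2, 10 and 31 reads in the Fkbp5 knockdown, 2, 5 and 10 reads in the Fkbp4 knockdown, and 1, 4 and 4 reads in the control, which kept the Fkbp5 knockdown highest at days 3 and 5.

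**Figure D2:**
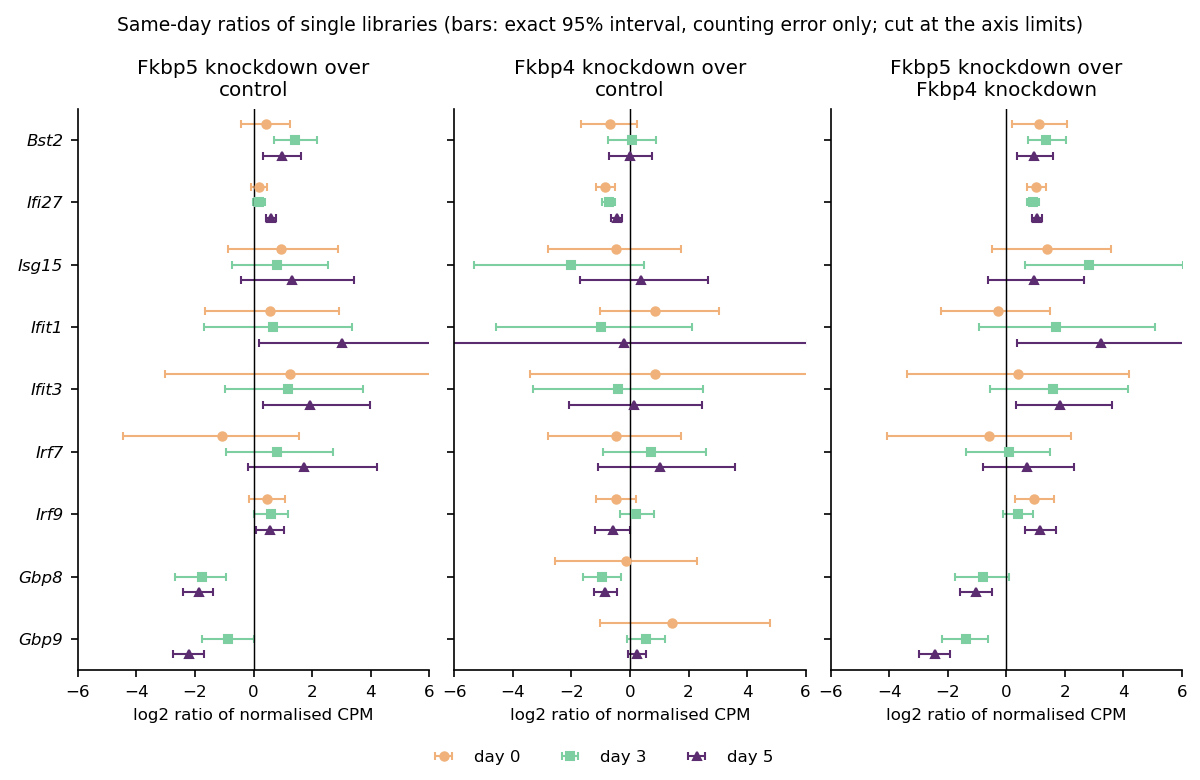
Log2 ratio of normalised CPM between 2 libraries of the same day (horizontal axis) for each gene, for the Fkbp5 knockdown over the control, the Fkbp4 knockdown over the control, and the Fkbp5 knockdown over the Fkbp4 knockdown; bars are exact 95% intervals for counting error, cut at the axis limits. The 7 interferon-stimulated genes lie to the right of 0 in 20 of 21 same-day pairs in the first panel, and these pairs are not independent. The share over all genes was not computed. Ifit1, Ifit3, Irf7 and Isg15 had at most 17 reads in a library. Ratios of Gbp8 and Gbp9 at day 0 are not drawn where the Fkbp5 knockdown had 0 reads.

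Over the 7 interferon-stimulated genes and 3 days, the Fkbp5 knockdown was above the control in 20 of 21 same-day pairs, with 7 intervals above 1. It was above the Fkbp4 knockdown in 19 of 21, with 11 intervals above 1. The Fkbp4 knockdown was above the control in 9 of 21 pairs and below it in 12, with 4 intervals below 1. These pairs are not independent, since they reuse the same libraries and some of the genes moved together. The correlation between 2 of the 7 genes ran from -0.08 (Ifi27 with Ifit1) to 0.89 (Bst2 with Irf9). The share of same-day pairs that were higher over all genes was not computed. Each of the 4 genes above the filter (Bst2, Ifi27, Isg15 and Irf9) exceeded its control level in the Fkbp5 knockdown on each of the 3 days, as did 17.7% of all 12844 genes tested. Isg15 passed the filter only through the Fkbp5 knockdown at days 3 and 5, with 11 reads each. No library of the other genotypes had more than 6 reads of it, so its place among these 4 followed from the group where it was high. The same 4 were higher than in the Fkbp4 knockdown on each day, as were 23.2% of genes. Ifi27 was the 1 of 4 that was lower in the Fkbp4 knockdown than in the control on each day, as were 20.9% of genes. In these bulk cultures a change in the share of expressing cells and a change in RNA per cell cannot be told apart.

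The differences common to the 3 days were tested with edgeR's quasi-likelihood test with genotype and day as additive terms, so that the 3 days took the place of replicates. P-values were adjusted by Benjamini-Hochberg over all 12844 genes. For the Fkbp5 knockdown against the control, 0 of the 4 interferon-stimulated genes tested passed an adjusted p of 0.05, where 0.685% of all genes were called higher and 1.40% lower. Of these, 3 had an unadjusted p under 0.05, as did 15.8% of all genes, DESeq2 called 0 and limma voom called 1. The log2 fold changes were 0.95 for Bst2 (SE 0.23, adjusted p = 0.0695), 0.33 for Ifi27 (SE 0.11, adjusted p = 0.158), 0.54 for Irf9 (SE 0.20, adjusted p = 0.207) and 0.99 for Isg15 (SE 0.46, adjusted p = 0.338). The value of Isg15 is a description, since this gene entered the fit through the Fkbp5 knockdown. Bst2 passed with limma voom, at 0.98, and with edgeR without the low-count filter, at a log2 fold change of 0.94 (SE 0.24, adjusted p = 0.00471). Relative to its SE, this estimate was no larger than in the main fit. The p-values of the unfiltered fit follow a normal curve and omit the uncertainty of the spread, so they cannot be set beside those of the main fit. The share of all genes called without the filter is not given here.

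In the Fkbp4 knockdown against the same control libraries, 1 of the 4 passed, where 0.265% of genes were called higher and 0.825% lower. Ifi27 fell by 0.66 on the log2 scale (SE 0.11, adjusted p = 0.0224). This call was lost in 9 of 18 alternative settings, among them without the day 0, day 3 or day 5 library of the Fkbp4 knockdown or the day 0 or day 3 library of the control, with the log2 fold change between -0.79 and -0.59 over all 18. The others had log2 fold changes of -0.19 for Bst2 (adjusted p = 0.752), -0.26 for Irf9 (adjusted p = 0.565) and -0.56 for Isg15 (adjusted p = 0.657), none of which passed.

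Set against the Fkbp4 knockdown, the Fkbp5 knockdown had more calls, as it had over all genes. Of the 4 tested, 3 passed, all higher, where 6.83% of genes were called higher and 6.02% lower. Ifi27 rose by 0.99 on the log2 scale (SE 0.11, adjusted p = 0.000707), Bst2 by 1.14 (SE 0.23, adjusted p = 0.0111) and Irf9 by 0.80 (SE 0.20, adjusted p = 0.0250). Isg15, at 1.55 (SE 0.48, adjusted p = 0.0593), did not pass, and it had entered the fit through the Fkbp5 knockdown. The call held in 17 of 18 alternative settings for Ifi27, in 13 for Bst2 and in 10 for Irf9. Without the day 5 library of the Fkbp5 knockdown, 1 of the 3 calls was left. That library also had the highest mitochondrial share, 10.1% of reads, against 5.01% in the Fkbp4 knockdown and 4.01% in the control at day 5. The part of this share in the differences was not tested.

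**Figure D3:**
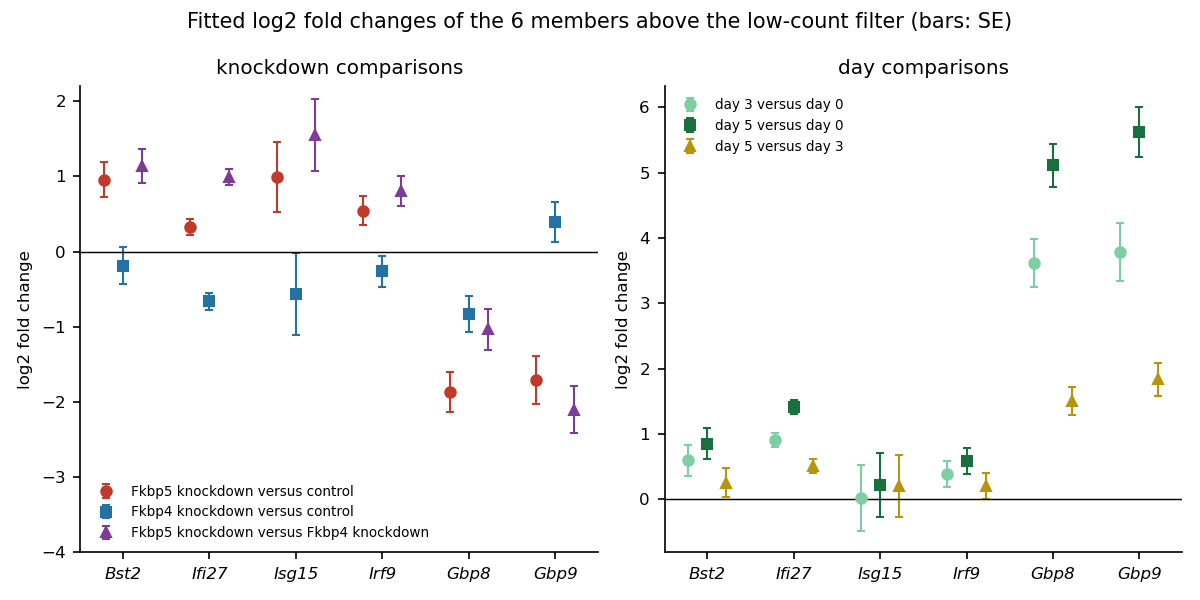
Log2 fold changes (vertical axis) from the fit over genotype and day for the 6 genes above the low-count filter, with the SE as bars; the left panel shows the knockdown comparisons and the right panel the day comparisons. Bst2, Ifi27, Isg15 and Irf9 lie above 0 in both comparisons of the Fkbp5 knockdown, between 0.33 and 1.55. Gbp8 and Gbp9 lie below 0 there and stand out in the day comparisons, at 5.12 and 5.62 for day 5 against day 0. The knockdown values of Gbp8 and Gbp9 are a description, since the genes were picked on them. Those of Isg15 in the Fkbp5 knockdown are a description too, since it entered the fit through that group.

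Across differentiation, with all 9 genes in scope and 6 tested, 3 rose between day 0 and day 3 and 5 rose between day 0 and day 5. These include Gbp8 and Gbp9, which had at most 6 reads in a day 0 library and passed the low-count filter through days 3 and 5, so that their part of the counts followed from the filter. At day 3 against day 0, 26.4% of all genes were called higher and 25.8% lower, and at day 5 against day 0, 29.3% higher and 28.6% lower. Ifi27 rose by 0.91 on the log2 scale at day 3 (SE 0.11, adjusted p = 5.74e-05) and by 1.42 at day 5 (SE 0.11, adjusted p = 1.77e-06). By day 5 it had reached 2.95 times its day 0 level in the Fkbp5 knockdown (2.53 to 3.46), 2.90 times in the Fkbp4 knockdown (2.38 to 3.56) and 2.23 times in the control (1.89 to 2.63). Bst2 rose by 0.85 at day 5 (SE 0.24, adjusted p = 0.0107), with 0.60 at day 3 (adjusted p = 0.0609). Irf9 rose by 0.59 at day 5 (SE 0.20, adjusted p = 0.0268), with 0.39 at day 3 (adjusted p = 0.135). Isg15 did not pass in either comparison, with 0.02 at day 3 (adjusted p = 0.980) and 0.22 at day 5 (adjusted p = 0.717). Without the day 0 library of the Fkbp5 knockdown, Bst2 and Irf9 were no longer called at day 5 against day 0. The Irf9 call was lost in 6 of 14 alternative settings. Without the low-count filter, which admits the genes with the fewest reads, Ifit3 was also called at day 5 against day 0, at a log2 fold change of 2.15 (SE 0.74, adjusted p = 0.0128). The p-values of that fit omit the uncertainty of the spread, as stated for Bst2 above. In that fit the Fkbp5 knockdown differed from the control by 1.53 for Ifit3 (SE 0.68, adjusted p = 0.307), 1.29 for Ifit1 (SE 0.73, adjusted p = 0.596) and 0.65 for Irf7 (SE 0.58, adjusted p = 0.902), none of which passed.

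Between day 3 and day 5, 3 of the 6 tested rose, where 3.77% of genes were called higher and 2.39% lower. These were Ifi27, at a log2 fold change of 0.51 (SE 0.10, adjusted p = 0.0180), Gbp8 and Gbp9. The Ifi27 call was lost in 5 of 14 alternative settings, namely without either later library of either knockdown or the day 3 library of the control, and those of Gbp8 and Gbp9 were lost with limma voom. Whether a knockdown difference changed between day 0 and the later days was tested in a fit with that interaction over 13372 genes, of which 5 (0.0374%) were called for the Fkbp5 knockdown and 5 (0.0374%) for the Fkbp4 knockdown. Of the 7 interferon-stimulated genes, 6 were tested there with edgeR and 0 were called for either knockdown. Of these 6, 0 had an unadjusted p under 0.05, and DESeq2 and limma voom called 0. With 2 residual degrees of freedom the interaction for Bst2 in the Fkbp5 knockdown was 0.77 (SE 0.48), so a day-dependent difference of this size could not be resolved.

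Gbp8 (chr5:105014150-105139540, minus strand) and Gbp9 (chr5:105077630-105139539, minus strand) belong to the guanylate-binding protein cluster of chromosome 5, and their annotated spans overlap. Gbp8 had 0, 3.63 and 9.42 CPM at days 0, 3 and 5 in the Fkbp5 knockdown, 0.801, 6.36 and 19.4 CPM in the Fkbp4 knockdown, and 0.883, 12.3 and 34.6 CPM in the control. Gbp9 had 0, 4.32 and 8.10 CPM in the Fkbp5 knockdown, 1.20, 11.3 and 44.0 CPM in the Fkbp4 knockdown, and 0.442, 7.81 and 37.5 CPM in the control. For the 0 of the Fkbp5 knockdown at day 0 a floor of 3 reads was set, or 0.788 CPM, while its exact 95% Poisson interval reached 0.969 CPM.

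Both genes were lowest in the Fkbp5 knockdown at days 3 and 5, and the genotypes were furthest apart at day 5. At day 0 each library had at most 6 reads of either gene and the Poisson intervals of the genotypes overlapped, so no order is given there. As a description of the values on which they were picked, the fitted log2 fold change in the Fkbp5 knockdown against the control was -1.86 for Gbp8 (SE 0.26) and -1.71 for Gbp9 (SE 0.32). For Gbp9 it was -1.07 without the day 5 library of the Fkbp5 knockdown, -1.27 without that of the control and -2.17 without the day 3 library of the Fkbp5 knockdown. Single-library ratios to the control at day 5 were 0.272 for Gbp8 (0.189 to 0.386) and 0.216 for Gbp9 (0.147 to 0.311). The Fkbp4 knockdown, set against the same control libraries, split the pair: its day 5 ratio to the control was 0.560 for Gbp8 (0.426 to 0.733) and 1.17 for Gbp9 (0.949 to 1.45). In the Fkbp5 knockdown against the Fkbp4 knockdown the fitted values were -1.03 for Gbp8 (SE 0.27) and -2.10 for Gbp9 (SE 0.32).

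Both genes rose with differentiation in all 3 day comparisons. The contrast on which they were picked was between genotypes, but they were chosen with these data known and entered the fit through the later days, so the tests describe the size of the rise. Gbp8 rose by 3.61 on the log2 scale at day 3 (SE 0.37, adjusted p = 1.84e-05) and by 5.12 at day 5 (SE 0.33, adjusted p = 5.00e-07) against day 0, and by 1.50 at day 5 against day 3 (SE 0.22, adjusted p = 0.00350). Gbp9 rose by 3.78 (SE 0.45, adjusted p = 4.88e-05), 5.62 (SE 0.38, adjusted p = 7.72e-07) and 1.84 (SE 0.25, adjusted p = 0.00297) in the same comparisons. From day 0 to day 5 Gbp8 increased 24.2-fold in the Fkbp4 knockdown (9.12 to 90.5) and 39.1-fold in the control (15.0 to 146). In the Fkbp5 knockdown its increase was 12.0-fold over the floor of 3 reads at day 0, a lower bound without an interval. For Gbp9 the increase was 36.6-fold in the Fkbp4 knockdown (16.5 to 101) and 84.9-fold in the control (23.1 to 707). In the Fkbp5 knockdown it was 10.3-fold over the same floor, again a lower bound. The rise from day 0 in the Fkbp5 knockdown therefore cannot be ranked against that of the other genotypes for either gene. All 8 myoblast and myotube markers were also higher at day 5 than at day 0, while from day 3 to day 5, 4 of them rose (Ckm, Myh3, Acta1 and Des) and 0 fell. In Fkbp5 knockdown cells against control cells, 1 of the 8 was called lower and 0 higher. Over all genes, 1.40% were lower and 0.685% higher. The 1 called was Ckm, the muscle creatine kinase, which fell by 1.10 on the log2 scale (SE 0.14, adjusted p = 0.00458). The other 7 lay between -0.67 for Myh3 and 0.15 for Myf5. Of the 8, 5 had an unadjusted p under 0.05, as did 15.8% of all genes, and the median log2 fold change was -0.49. For the Fkbp5 knockdown against the Fkbp4 knockdown, 4 of the 8 were called lower and 0 higher. Over all genes, 6.02% were lower and 6.83% higher there. The 4 were Myh3 at -1.36, Ckm at -1.34, Mymk at -1.05 and Acta1 at -0.93. The part of these differences in the levels of Gbp8 and Gbp9 was not tested.

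**Figure D4:**
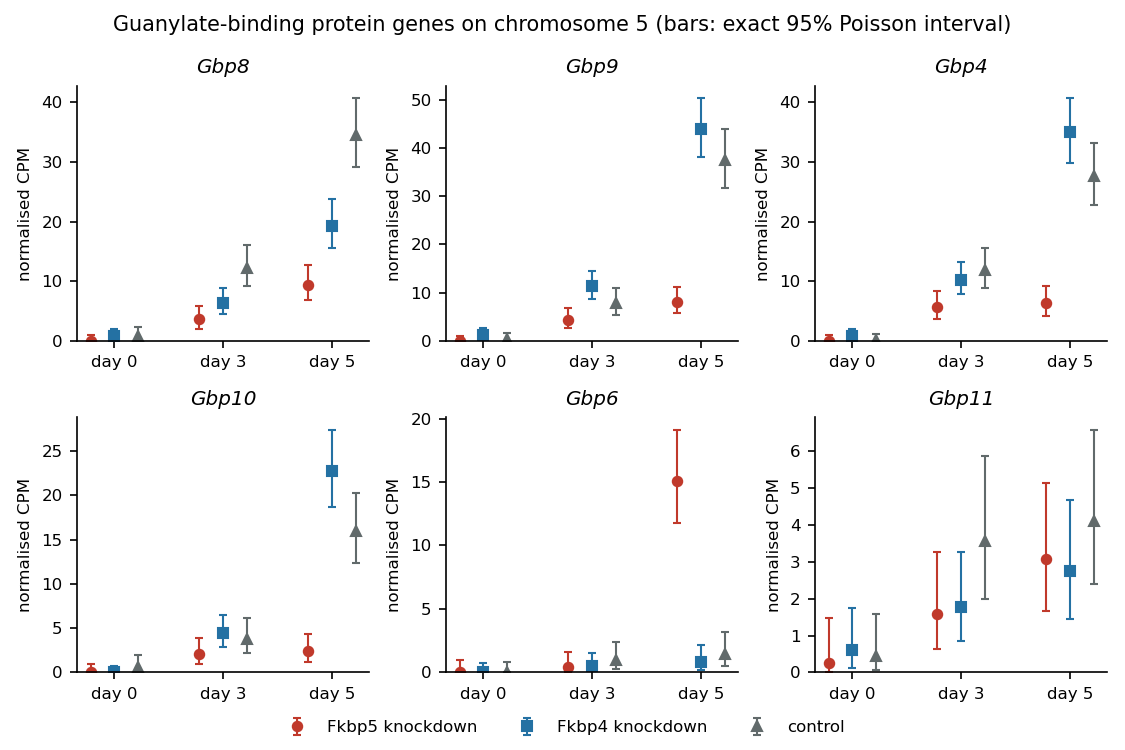
Normalised CPM (vertical axis, linear, a separate scale per gene) of 6 guanylate-binding protein genes on chromosome 5 at days 0, 3 and 5 in the Fkbp5 knockdown (circles), the Fkbp4 knockdown (squares) and the control (triangles), 1 library per point, with exact 95% Poisson intervals as bars. Gbp4, Gbp8, Gbp9 and Gbp10 are lowest in the Fkbp5 knockdown at day 5, and Gbp6 is high in that library alone, at 15.1 CPM, against 0.842 CPM in the Fkbp4 knockdown and 1.45 CPM in the control.

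In a list of 20 further guanylate-binding proteins and related GTPases, 13 were tested. In the Fkbp5 knockdown against the control, 1 was called lower and 0 higher, where 1.40% of all genes were lower and 0.685% higher (median log2 fold change -0.02, against 0.00 over all genes). For the Fkbp4 knockdown against the control, edgeR called 0, with 2 at an unadjusted p under 0.05, as had 16.4% of all genes. Between the knockdowns, Fkbp5 against Fkbp4, 2 were lower and 0 higher, where 6.02% of genes were lower and 6.83% higher. The 1 in the first comparison was Gbp4, the neighbour of Gbp8 and Gbp9, which fell by 1.62 on the log2 scale (SE 0.36, adjusted p = 0.0480). It had 0, 5.68 and 6.35 CPM at days 0, 3 and 5 in the Fkbp5 knockdown, 0.801, 10.3 and 34.9 CPM in the Fkbp4 knockdown and 0.221, 11.8 and 27.6 CPM in the control. Against the Fkbp4 knockdown, Gbp4 fell by 1.80 (SE 0.35, adjusted p = 0.00993) and Gbp10 by 2.35 (SE 0.53, adjusted p = 0.0181). From day 0 to day 5, 7 of the 13 rose and 1 fell, where 29.3% of all genes were called higher and 28.6% lower. The strongest were Gbp4 by 5.85 (SE 0.47, adjusted p = 2.44e-06), Gbp10 by 5.76 (SE 0.65, adjusted p = 2.75e-05) and Gbp11 by 2.82 (SE 0.47, adjusted p = 0.000444). Like Gbp8 and Gbp9, these had few reads at day 0, at most 4 in a library, and passed the low-count filter through days 3 and 5. Their part of the count that rose therefore followed from the filter, and their tests describe the size of the rise.

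How reads were divided within the cluster bears on these values. The annotation (GENCODE M21) gives Gbp4, Gbp8 and Gbp9 a common stretch of 60 to 61 bases, 1.77% of the exon bases of Gbp8 and 1.16% of those of Gbp9, and 31.1% of the 31-base words of Gbp8 and 18.3% of those of Gbp9 recur in other genes. For Gbp10 the share is 89.8%, with 80.8% found in Gbp6 and 76.7% in the gene model Gm43302, which also covers 46.3% of the exon bases of Gbp10. The values of Gbp6 and Gbp10 are therefore uncertain. Gbp6, named here after its values were seen, had 0, 2 and 69 reads at days 0, 3 and 5 in the Fkbp5 knockdown, 0, 3 and 4 reads in the Fkbp4 knockdown, and 0, 4 and 6 reads in the control. Gbp10 had 0, 9 and 11 reads in the Fkbp5 knockdown, 0, 25 and 108 reads in the Fkbp4 knockdown, and 3, 16 and 66 reads in the control. Summed over Gbp6 and Gbp10, the day 5 level was 17.5 CPM in the Fkbp5 knockdown, 23.6 CPM in the Fkbp4 knockdown and 17.4 CPM in the control. At day 3 that sum was 2.50 CPM in the Fkbp5 knockdown, 4.95 CPM in the Fkbp4 knockdown and 4.73 CPM in the control. Sums that include Gbp8 and Gbp9 hold values on which these genes were picked. Summed over Gbp4, Gbp8 and Gbp9, the day 5 level was 23.9 CPM in the Fkbp5 knockdown, 98.3 CPM in the Fkbp4 knockdown and 99.6 CPM in the control. Over the 6 plotted genes of the cluster it was 44.5 CPM in the Fkbp5 knockdown, 125 CPM in the Fkbp4 knockdown and 121 CPM in the control. Without Gbp8 and Gbp9, the other 4 genes summed to 26.9 CPM in the Fkbp5 knockdown, 61.2 CPM in the Fkbp4 knockdown and 49.1 CPM in the control.

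Upstream of the interferon-stimulated genes, the ligands, receptors and signal transducers were surveyed in a list of 18 genes. Ifnb1, Ifnk, Ifne (type I interferons) and Irf8 had 0 reads in all 9 libraries. Ifng, the type II interferon, had 0, 1 and 6 reads at days 0, 3 and 5 in the Fkbp5 knockdown, 0, 1 and 1 reads in the Fkbp4 knockdown and 2, 3 and 6 reads in the control. The receptors were present, with Ifnar1 at 55.6 to 81.2 CPM in the Fkbp5 knockdown, 54.3 to 71.1 CPM in the Fkbp4 knockdown and 54.6 to 70.9 CPM in the control. Of 12 tested with edgeR, 0 were called in the Fkbp5 knockdown against the control, 2 of them at an unadjusted p under 0.05, as were 15.8% of all genes. The median log2 fold change was 0.17, against 0.00 over all genes.

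Within this list the fitted difference of the Fkbp5 knockdown from the control was 0.26 for Stat2, a signal transducer of type I interferon (SE 0.12, adjusted p = 0.341), and did not pass. For the receptors it lay at 0.16 for Ifnar1, 0.04 for Ifnar2, 0.35 for Ifngr1 and 0.33 for Ifngr2. For the kinases it lay at -0.01 for Jak1, 0.00 for Jak2 and 0.22 for Tyk2, and for interferon regulatory factors at 0.18 for Irf1, -0.19 for Irf2 and -0.13 for Irf3. Irf5 had at most 4 reads in a library and was not tested. Against the Fkbp4 knockdown, 1 of the 12 was called higher, a share near the 6.83% of all genes. Ifngr2, a chain of the interferon gamma receptor, rose by 0.42 on the log2 scale (SE 0.10, adjusted p = 0.0259). In the Fkbp4 knockdown against the control edgeR called 0 of the 12, with 1 at an unadjusted p under 0.05, against 16.4% of all genes.

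Downstream, 26 of 50 other interferon-stimulated effectors were tested. In the Fkbp5 knockdown against the control 3 rose and 0 fell, where 0.685% of all genes were called higher and 1.40% lower, and the median log2 fold change over the 26 was 0.28. Against the Fkbp4 knockdown 6 rose and 0 fell, where 6.83% of genes were higher and 6.02% lower, with a median of 0.33. Ifi27l2a, a neighbour and relative of Ifi27 on chromosome 12, had 1.31, 20.4 and 10.5 CPM at days 0, 3 and 5 in the Fkbp5 knockdown, 0.200, 2.30 and 1.05 CPM in the Fkbp4 knockdown, and 0.883, 3.79 and 2.90 CPM in the control. It rose by 1.96 against the control (SE 0.32, adjusted p = 0.0140) and by 3.11 against the Fkbp4 knockdown (SE 0.34, adjusted p = 0.000792). The other 2 that rose against the control were Lgals9, a galectin, by 0.66 (SE 0.14, adjusted p = 0.0401) and Ifi30, a lysosomal thiol reductase, by 0.63 (SE 0.11, adjusted p = 0.0220). Against the Fkbp4 knockdown these were joined by Lgals3bp at 1.28, Ube2l6, the conjugating enzyme for Isg15, at 0.65, and Ifit2 at 0.61.

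Of 11 tested genes of MHC class I antigen presentation, 3 rose in the Fkbp5 knockdown against the control (median log2 fold change 0.31) and 7 against the Fkbp4 knockdown (median 0.53), with 0 lower in either. Over all genes, 0.685% and 6.83% were called higher in these comparisons. Tap2, a subunit of the peptide transporter, had 11.0, 24.3 and 20.6 CPM at days 0, 3 and 5 in the Fkbp5 knockdown, 6.21, 12.4 and 10.3 CPM in the Fkbp4 knockdown and 4.86, 9.47 and 8.22 CPM in the control. It rose by 1.30 against the control (SE 0.17, adjusted p = 0.00604), beside H2-D1 by 0.65 (adjusted p = 0.0110) and H2-K1 by 0.61 (adjusted p = 0.0285), heavy chains of class I. In the Fkbp4 knockdown against the control 0 of the 26 effectors and 0 of the 11 class I genes were called with edgeR, with 2 and 3 of them at an unadjusted p under 0.05, against 16.4% of all genes. Of the 2 immune markers tested, Cd14 rose by 0.88 in the Fkbp5 knockdown against the Fkbp4 knockdown (SE 0.24, adjusted p = 0.0394). Cd68 was flat there, at 0.03 (adjusted p = 0.974). Against the control neither passed, with 0.54 for Cd14 (adjusted p = 0.313) and 0.09 for Cd68 (adjusted p = 0.957). The summed level of the 14 immune and endothelial markers was 7.72 to 20.5 CPM in the Fkbp5 knockdown, 5.30 to 12.8 CPM in the Fkbp4 knockdown and 6.77 to 16.6 CPM in the control. Its part in the result was not tested.

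**Figure D5:**
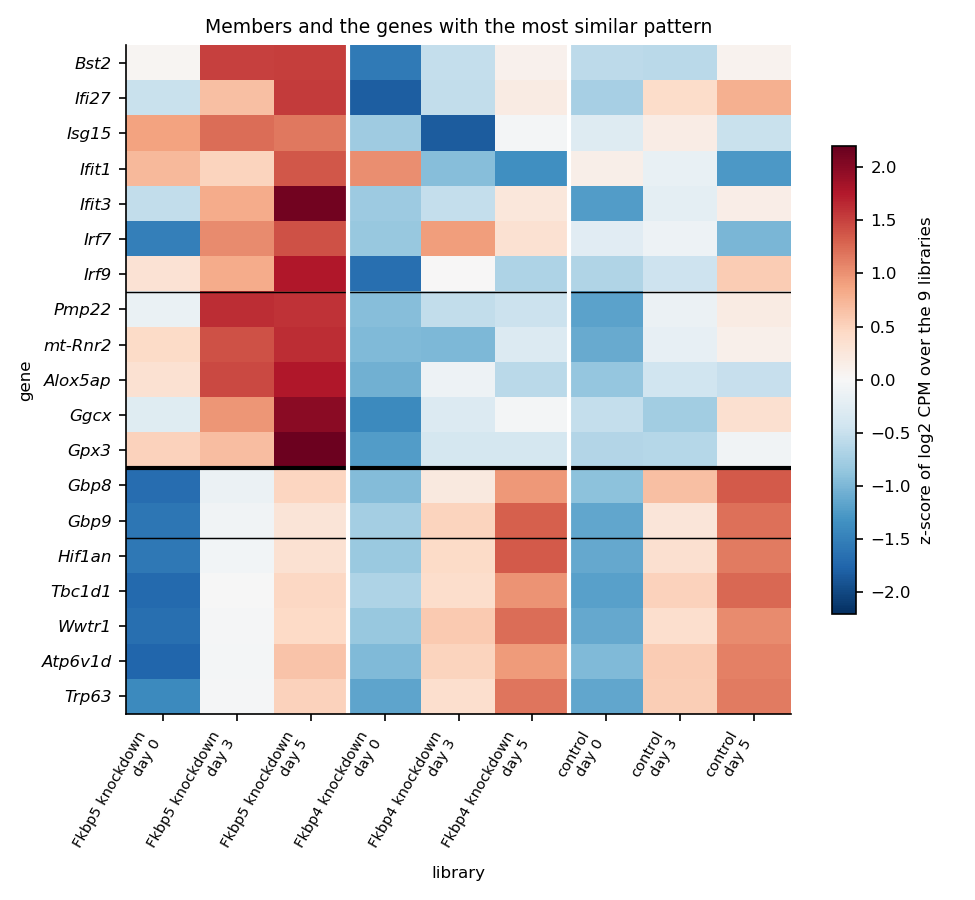
Z-scores of log2 CPM over the 9 libraries (colour) for the 7 interferon-stimulated genes and the 5 genes most like them (above the thick line) and for Gbp8, Gbp9 and the 5 genes most like them (below it); columns are libraries, grouped by genotype and then by day. Most genes of the upper block are highest in the Fkbp5 knockdown at day 3 or day 5, and those of the lower block in the Fkbp4 knockdown or the control at day 5.

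The members were not uniform among themselves. The Pearson correlation of log2 CPM with the mean z-score of the 7 interferon-stimulated genes over the 9 libraries was 0.95 for Bst2, 0.92 for Ifit3, 0.88 for Irf9 and 0.84 for Ifi27, against 0.77 for Isg15, 0.62 for Irf7 and 0.40 for Ifit1. The mean includes the gene itself, which raises these values, so they cannot be set beside those of other genes. Isg15, Irf7 and Ifit1 had at most 11 reads in a library, and the part of counting error in their lower values was not tested. Among 10885 other genes the profiles most like this mean were those of Pmp22 (r = 0.943), mt-Rnr2 (r = 0.941), Alox5ap (r = 0.941), Ggcx (r = 0.940) and Gpx3 (r = 0.939). Pmp22 had 100 to 229 CPM in the Fkbp5 knockdown, 68.7 to 85.6 CPM in the Fkbp4 knockdown and 61.4 to 116 CPM in the control. The profiles most like the mean of Gbp8 and Gbp9 were those of Hif1an (r = 0.994), Tbc1d1 (r = 0.993), Wwtr1 (r = 0.991), Atp6v1d (r = 0.988) and Trp63 (r = 0.987). These correlations describe 9 libraries that share a time course and carry no test.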

How the data were processed

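Polyadenylated RNA of 9 C2C12 libraries was sequenced. The deposited files give unnormalised counts of reads for each Ensembl gene identifier. Per the submitters' processing notes, featureCounts 1.4.6 from Subread, HISAT2 2.0.2, CASAVA 1.8 and build mm10 were used. The annotation release, strand setting and treatment of multiply aligned reads are not given in the sources used here. Identifiers were matched to symbols for 47223 of 47728 genes, and positions come from GENCODE M21 (GRCm38).

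Counts were analysed with edgeR 4.0.16 in R 4.3.3 (filterByExpr, TMM, quasi-likelihood F test, two-sided, genotype and day as additive terms, residual df 4, common BCV 0.126). The interaction fit had 2 residual degrees of freedom. Called means an adjusted p under 0.05, and each SE was computed as |log2 fold change| over the root of its F statistic. Nothing says that the libraries came from separate experiments. P-values measure the departure of single libraries from additive effects of genotype and day, and not the spread of replicates. Same-day ratios carry exact Clopper-Pearson intervals and levels exact Poisson intervals (scipy 1.17.1), at 95%, which cover counting error only, since duplicates were not separated from molecules. A day 0 count of 0 was set to a floor of 3 reads in ratios between days, which makes the ratio a lower bound. Depth was 3932372 to 5568486 reads.

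The members and gene lists were chosen with earlier results of these data known. Named genes were the 9 members, the 2 targets, all signalling genes with reads (1 of them is not reported here), up to 6 called genes per other list and comparison, and the 5 most similar genes with a mean of at least 5 CPM (prior count 2). Alternatives were RLE and upper quartile factors, no filter, DESeq2 1.42.0, limma 3.58.1 (voom), leaving out each library or day, no day term, Spearman correlation and other motifs. The scripts were tested on simulated counts.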

Additional observations from a re-analysis of the deposited data

Results flagged for a closer look

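Among the interferon-stimulated genes, 3 had effects that differed between the knockdowns by a test of the difference itself (edgeR's quasi-likelihood test, Fkbp5 knockdown minus Fkbp4 knockdown, log2 scale). The difference was 1.14 for Bst2, 0.99 for Ifi27 and 0.80 for Irf9. Each was higher in the Fkbp5 knockdown on 3 of 3 days, as were 23.2% of all genes. In this comparison 6.83% of genes were called higher and 6.02% lower. The call was lost in 8 of 18 alternative settings for Irf9, 5 for Bst2 and 1 for Ifi27. For Ifi27 it was made of a level above the control in the Fkbp5 knockdown, which did not pass the test, and one below it in the Fkbp4 knockdown, which did.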

How the results depend on the processing

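In the Fkbp5 knockdown against the control, 1 interferon-stimulated gene (Bst2) was called without the low-count filter and 1 with limma voom, against 0 in the main analysis. The p-values of the unfiltered fit omit the uncertainty of the spread. In the Fkbp4 knockdown against the control the count of 1 became 0 without day 0, without day 3, without day 5 and with no day term, and ranged from 0 to 1 when single libraries were left out. In the Fkbp5 knockdown against the Fkbp4 knockdown the count of 3 became 1 without day 5 and 0 with no day term, and ranged from 1 to 3 when single libraries were left out. For day 5 against day 0 the count of 5 ranged from 3 to 5 over left-out libraries, and for day 5 against day 3 the count of 3 became 1 with limma voom. The log2 fold change of Isg15 at day 3 against day 0, 0.02, was -0.031 with upper quartile factors, -0.032 with DESeq2, -0.054 with limma voom and -0.20 to 0.036 over left-out libraries. That of Bst2 in the Fkbp4 knockdown against the control, -0.19, was 0.031 without day 0 and -0.37 to 0.037 over left-out libraries. The cause of these changes was not tested. In the other 90 pairings of a comparison with a setting the count of called members stayed within 1.5 times. Gbp8 and Gbp9 kept their calls at day 3 and day 5 against day 0 in 14 of 14 settings. By Spearman correlation 0 of the 5 genes most like the interferon-stimulated genes stayed among the first 5, and Tbc1d1 alone of the 5 stayed among the 5 genes most like Gbp8 and Gbp9. Genes of the surrounding lists were not refitted under these alternatives. No paired analysis by replicate number was possible because each group has 1 library, and the day term of the main fit already compares genotypes within days. Depth limits Ifit1, Ifit3, Irf7 and Isg15, with at most 17 reads in a library.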

Other observations

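Other genes of innate sensing and its restraint were compared between day 5 and day 0 in all genotypes fitted together (edgeR, log2 fold changes), where 29.3% of all genes were called higher and 28.6% lower. Among 13 tested nucleic acid sensors and adaptors 1 rose and 4 fell, fewer in all than the background share. Ddx58, the RIG-I RNA sensor, rose by 0.92 (SE 0.19, adjusted p = 0.00166). Cgas, the cytosolic DNA sensor, fell by 1.35 (SE 0.30, adjusted p = 0.00287) and Tmem173, which encodes its adaptor STING, fell by 0.86 (SE 0.21, adjusted p = 0.00518). Among 8 tested negative regulators 2 rose and 3 fell, near the background share, with Nlrx1 rising by 1.49 (SE 0.26, adjusted p = 0.000637) and Socs1, an inhibitor of Jak kinases, falling by 1.11 (SE 0.31, adjusted p = 0.0107). Among 26 tested effectors 7 rose and 3 fell, fewer in all than the background share. Ifi27l2a rose by 2.45 (SE 0.43, adjusted p = 0.000578) and Xaf1 by 2.24 (SE 0.26, adjusted p = 3.47e-05). Ifitm1, a viral entry inhibitor, fell by 2.55 (SE 0.43, adjusted p = 0.000514).

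From day 0 to day 5, 3 of the 12 tested genes of the signalling list rose and 3 fell, near the background share. Stat2 rose by 0.89 (SE 0.13, adjusted p = 0.000145), Tyk2 by 0.60 (SE 0.11, adjusted p = 0.000969) and Ifngr2 by 0.46 (adjusted p = 0.00362). Jak2 fell by 0.52 (adjusted p = 0.0137), Ifnar1 by 0.44 (SE 0.10, adjusted p = 0.00290) and Ifngr1 by 0.42 (adjusted p = 0.0186). Between the knockdowns, Fkbp5 against Fkbp4, 1 of the 13 sensors was called higher and 0 lower, a share near the 6.83% of all genes called higher. This was Ddx58, at 0.65 (SE 0.18, adjusted p = 0.0374). Of the 8 negative regulators 2 were lower and 0 higher, where 6.02% of all genes were lower. Samhd1 fell by 0.60 (SE 0.14, adjusted p = 0.0202) and Pias1 by 0.45 (SE 0.13, adjusted p = 0.0485). Against the control, 0 of the 13 sensors and 0 of the 8 regulators were called for either knockdown. Over all genes, 2.09% were called for the Fkbp5 knockdown and 1.09% for the Fkbp4 knockdown.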
